A study of Mus musculus with 12 samples.

Results

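Serpins are a family of proteins, most of which trap proteases by offering them a bait loop and then changing shape around the bound enzyme. The 37 genes described here are the protein-coding mouse genes whose symbol starts with Serpin and that had an expected count of at least 10 in at least 3 of 12 libraries. They are 37 of 61 such genes among the 55416 gene identifiers measured. Among the other 24 genes, 4 had no count in any library, and they include Serpina1a and Serpind1, which make antitrypsin and heparin cofactor, with at most 3.28 and 10 expected counts in a library. Just inside the limit stood Serpinb9b and Serpinb1c with 3 libraries and Serpinb3d with 5. Just outside it stood Serpinb6e, with at least 10 counts in 2 libraries and at most 56. A further 7 Serpin-named genes have another annotated biotype and are not members.

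The study measured mRNA of mouse ear skin on day 6 by bulk RNA sequencing, in 4 groups of 3 libraries, all from C57BL/6 animals 8 to 12 weeks old. In the groups IMQ_GW3965, IMQ_Troglitazone and IMQ_Veh the ears were painted daily with 20.8 mg of a 5% imiquimod cream, a Toll-like receptor agonist used to provoke psoriasis-like inflammation. IMQ_GW3965 also received the liver X receptor agonist GW3965 at 20 mg/kg, and IMQ_Troglitazone received the PPARγ agonist troglitazone at 150 mg/kg, each by daily intraperitoneal injection from day 3; IMQ_Veh received the DMSO vehicle. UTX_Veh carries no imiquimod in its label, and UTX is not spelled out. The cream base and imiquimod cannot be told apart in this design, the doses of the agonists differ, and the agonists are not structural analogs. The labels do not say whether replicates are different animals, so the p-values rest on library-to-library spread, which may be technical.

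Libraries held 18242074 to 25641602 expected counts. The keratinocyte genes Krt5 and Krt14 were at least 3358 CPM (counts scaled to library size with the TMM factors of edgeR) in every library, which is what the label ear skin calls for, and the liver marker list summed to at most 1.53 CPM although many clade A serpins are liver genes. One library in each of 2 groups stood apart in its make-up. In IMQ_GW3965 replicate 3 a single feature, ENSMUSG00000119584, took 11.6% of the counts, against 0.0454% to 0.138% elsewhere, so TPM in that library are shares of a total that includes it. IMQ_Veh replicate 3 had 3235 CPM of skeletal muscle markers and 9107 CPM of fibroblast markers, against 643 to 794 CPM and 1834 to 4056 CPM in the other IMQ_Veh libraries. IMQ_Veh replicate 2 had the least fibroblast, endothelial and adipocyte markers of its group (1834, 55.8 and 41.2 CPM). In chi-square per degree of freedom over genes, IMQ_Veh replicates 1 and 3 differed least (40.55). The value was 51.16 for replicates 1 and 2 and 88.63 for replicates 2 and 3. Fits without replicate 3 are therefore not a corrected result. A gene is said to have changed, or to be called, at a Benjamini-Hochberg adjusted p under 0.05 over all 17130 genes tested, and all 37 members were among those genes.

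Clade B serpins lack a classical secretion signal and act mostly inside cells or after release from damaged cells; keratinocytes of the cornifying layers make many of them, where they restrain serine and cysteine proteases that cut the junctions between cells. Clade A serpins are mostly secreted and circulate in plasma, and several of the mouse Serpina3 genes arose by local duplication. Members of clades C, E, F, G, H and I act in clotting, plasminogen activation, complement and collagen folding.

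Most members lie in 3 gene clusters (GENCODE M21 coordinates, GRCm38). On chromosome 1, 11 clade B members span chr1:106861173-107610484. On chromosome 13, 8 clade B members span chr13:32842092-34002794. On chromosome 12, 10 clade A members span chr12:103994743-104414329. The other 8 members are single genes or pairs of other clades. Some members of these clusters are close copies: the coding sequences of Serpinb3a and Serpinb3b were 92.9% identical, those of Serpinb3b and Serpinb3c 93.1%, those of Serpinb1a and Serpinb1c 88.2%, and those of Serpinb6c and Serpinb6d 81.6%. Others are more distant, and the adjacent Serpinb7 and Serpinb11 were 58.1% identical. Reads that match more than 1 gene are split by RSEM, and expected counts of Serpinb2, Serpinb3a, Serpinb6a and Serpinc1 were not whole (more than 0.005 from a whole number) in any of the 12 libraries, nor were those of Serpina3g in 10 of them, so their values depend on that division. Serpinb3b overlaps Serpinb3c, Serpinb2 overlaps Serpinb10 and Serpina3m overlaps Serpina3k on the same strand, and 4 members (Serpinb6a, Serpinb7, Serpinb9b and Serpinc1) overlap a gene on the opposite strand; the labels do not say how strand was treated in counting.

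The sequences upstream of 6 members are shown because the results turn on these genes. Serpinb3a and Serpinb3b, close copies with Serpinb3d between them, differed in the size of their change. Serpinb6c and Serpinb6d moved in opposite directions, and Serpina12 and Serpinb7 rose with each agonist. Each sequence is the 250 bases before the RefSeq transcription start (GRCm38.p6), written 5′ to 3′ on the gene's strand. Capitals mark matches, on either strand, to an AP-1 site, a TATA box, a STAT site or the core of nuclear receptor sites, whose letters are given with their counts.
Serpinb3a: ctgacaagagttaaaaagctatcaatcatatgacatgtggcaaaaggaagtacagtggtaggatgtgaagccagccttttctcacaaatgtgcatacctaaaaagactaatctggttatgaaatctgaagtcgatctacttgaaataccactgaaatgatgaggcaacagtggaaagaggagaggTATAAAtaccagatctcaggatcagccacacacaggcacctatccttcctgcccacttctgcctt
Serpinb3b: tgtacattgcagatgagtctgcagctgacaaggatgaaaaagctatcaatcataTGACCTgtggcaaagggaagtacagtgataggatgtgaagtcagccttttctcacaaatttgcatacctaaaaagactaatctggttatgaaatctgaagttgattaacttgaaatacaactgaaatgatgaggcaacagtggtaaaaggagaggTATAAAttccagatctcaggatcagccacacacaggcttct
Serpinb6c: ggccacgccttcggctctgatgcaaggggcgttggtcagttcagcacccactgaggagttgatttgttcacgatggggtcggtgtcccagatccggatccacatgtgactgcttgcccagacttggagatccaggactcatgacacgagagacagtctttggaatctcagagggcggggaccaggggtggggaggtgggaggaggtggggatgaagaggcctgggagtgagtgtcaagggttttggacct
Serpinb6d: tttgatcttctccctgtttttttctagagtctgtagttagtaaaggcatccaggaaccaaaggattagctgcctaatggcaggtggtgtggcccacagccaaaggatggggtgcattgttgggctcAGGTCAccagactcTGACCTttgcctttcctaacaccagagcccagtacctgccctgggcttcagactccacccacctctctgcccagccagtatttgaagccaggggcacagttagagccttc
Serpina12: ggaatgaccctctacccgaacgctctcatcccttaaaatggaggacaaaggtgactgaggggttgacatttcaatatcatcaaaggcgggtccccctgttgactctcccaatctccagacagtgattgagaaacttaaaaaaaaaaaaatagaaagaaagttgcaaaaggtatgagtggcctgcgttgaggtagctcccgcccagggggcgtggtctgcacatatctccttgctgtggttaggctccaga
Serpinb7: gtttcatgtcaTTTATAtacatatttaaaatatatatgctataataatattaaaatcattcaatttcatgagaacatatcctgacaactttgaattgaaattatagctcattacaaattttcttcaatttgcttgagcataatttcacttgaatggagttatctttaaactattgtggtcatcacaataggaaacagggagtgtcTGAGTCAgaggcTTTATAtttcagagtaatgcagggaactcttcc
They lie at chr1:107052304-107052553 (minus strand), chr1:107161115-107161364 (minus), chr13:33905192-33905441 (minus), chr13:33661155-33661404 (plus), chr12:104044444-104044693 (minus) and chr1:107422439-107422688 (plus), in the order printed. The RefSeq starts of Serpinb3b and Serpinb7 lie 117247 and 23034 bases from the outermost GENCODE start of those genes.

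The windows of Serpinb3a and Serpinb3b were 77.0% identical in alignment, against 46.7% for those of Serpinb6c and Serpinb6d. A TATA match begins 65 bases before the start in Serpinb3a and 41 bases before it in Serpinb3b. The bases just after the match are nearly the same in both windows, so these distances depend on where RefSeq places each start. The sequence after the Serpinb3a start was not found in a GENCODE transcript of that gene. Of the 31 members with upstream sequences, 28 passed this check. Serpinb7 holds an AP-1 match that begins 45 bases before the start, Serpinb6d holds a pair of AGGTCA cores, and the windows of Serpinb6c and Serpina12 hold none of the 4 motifs. Upstream sequences were found for 31 of the 37 members. AP-1 matches (TGANTCA) occurred in 6 of these 31 (19.4%) and in 6.75% of 32851 mouse promoters of the same length. The TATA motif (TATAAA) occurred in 11 (35.5%) and in 12.4%. The STAT motif (TTCNNNGAA) occurred in 4 (12.9%) and in 7.02%, and the receptor core (AGGTCA) in 7 (22.6%) and in 14.0%. Direct repeats of that core 4 bases or 1 base apart, the forms bound by liver X receptors and by PPARγ and both containing the core, matched in none of the 31 and in 0.0152% and 0.0335% of all promoters. A match to these letters is a description of the window and not a binding site.

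Per unit of transcript length, the serpin total and the members that led it were read in TPM. Summed TPM of the 37 members lay between 2011 and 2250 in IMQ_GW3965, 2391 and 2575 in IMQ_Troglitazone, 1930 and 2478 in IMQ_Veh, and 2399 and 2566 in UTX_Veh. In TPM, IMQ_Veh overlapped with each other group, and IMQ_Troglitazone with UTX_Veh. The 3 IMQ_GW3965 libraries lay below all IMQ_Troglitazone and UTX_Veh libraries. TPM are shares of each library's total, so this order does not show that the serpin total was lower with GW3965. Serpinb6a, for example, averaged 211 TPM in IMQ_GW3965 and 242 TPM in UTX_Veh, but 226 CPM and 169 CPM. Serpinb5 (maspin, a non-inhibitory serpin of epithelia) was the most abundant member in 11 of 12 libraries, with 433 to 492 TPM in IMQ_GW3965, 467 to 573 TPM in IMQ_Troglitazone, 390 to 417 TPM in IMQ_Veh, and 373 and 419 TPM in UTX_Veh replicates 1 and 2. Serpinf1, which makes the secreted pigment epithelium-derived factor, led in UTX_Veh replicate 3 with 474 TPM. By mean TPM, Serpinb5, Serpinb3a, Serpinb2, Serpinb12 and Serpinb3b led in IMQ_Veh (403, 310, 257, 210 and 191 TPM), whereas Serpinb5, Serpinf1, Serping1, Serpinb6a and Serpinb7 led in UTX_Veh (382, 373, 245, 242 and 172 TPM).

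**Figure D1:**
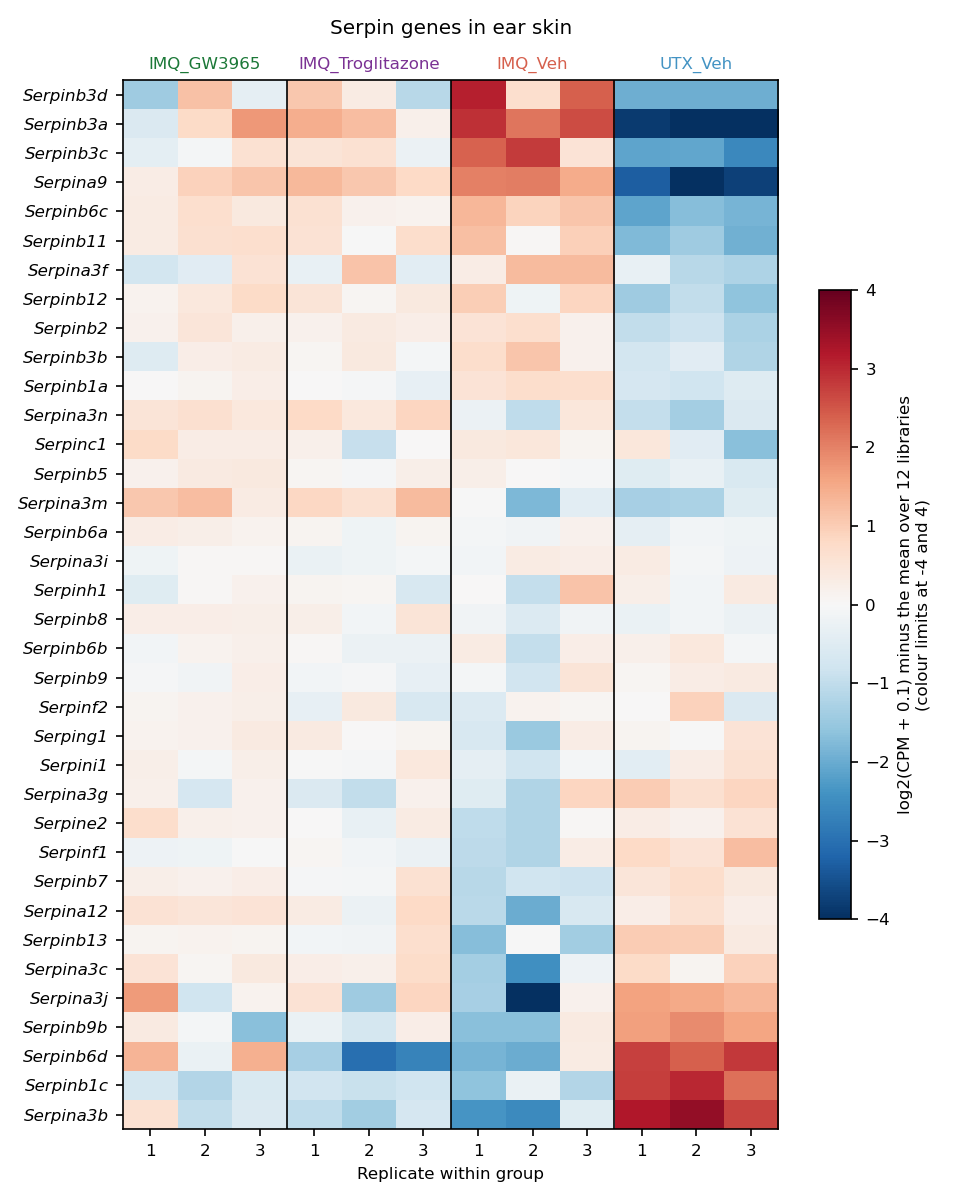
Each row is a serpin gene whose values are reported and each column a library; colour is log2(CPM + 0.1) minus the gene's mean over the 12 libraries, limited to -4 and 4, and genes are ordered by their log2 fold in IMQ_Veh over UTX_Veh. Genes at the top, led by Serpinb3d and Serpinb3a, are high in the IMQ_Veh columns, and genes at the bottom, led by Serpina3b and Serpinb1c, are high in the UTX_Veh columns.

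The comparison of IMQ_Veh with UTX_Veh asks how serpin mRNA differed in imiquimod skin. In IMQ_Veh against UTX_Veh, 14 members rose, 11 fell and 12 did not pass the test. That is 67.6% called, beside 61.9% of all tested genes (33.0% higher and 28.9% lower), a share near the background. The median absolute log2 fold was 1.43 over the members and 0.60 over all tested genes. The median log2 fold was 0.14 over the members. Some members passed the count rule only through groups where they were high, so these sizes are a description. Without Serpinb1c and Serpinb9b, members only through UTX_Veh, the median absolute log2 fold was 1.37. Serpinb3c and Serpinb3d, members only through imiquimod groups, were not left out of that value. Groups did not overlap for 23 of the 37 members, beside 66.8% of all tested genes, a share that does not set the members apart. In bulk tissue, fewer cells of a type and less RNA per cell cannot be told apart, and marker lists of several cell types moved in the same comparison: 5 of 6 neutrophil markers rose (summed CPM of 5739 to 10079 in IMQ_Veh, against 19.5 to 35.9 in UTX_Veh), all 6 muscle markers fell (643 to 3235 CPM in IMQ_Veh, against 6153 to 7062 CPM in UTX_Veh), and suprabasal keratinocyte markers, with 3 of 5 higher and 1 lower, summed to 27453 to 41943 CPM in IMQ_Veh, against 13352 to 15997 CPM in UTX_Veh. Their part in the serpin differences was not tested.

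The chromosome 1 clade B cluster held 8 of the 14 members that rose, with 2 lower and 1 not called among its 11 (90.9% called, beside 61.9% of all tested genes). Serpinb3c and Serpinb3d are among the 8. They are members only through imiquimod groups, so the count rule favoured their rise. The share is therefore a description and not a test. Serpinb3a (ENSMUSG00000044594, chr1:107045587-107052303), whose human relatives inhibit papain-like cathepsins and chymotrypsin-like proteases, had 459, 269 and 370 CPM in IMQ_Veh, against 4.13, 3.47 and 2.48 CPM in UTX_Veh. The log2 fold was 6.76 ± 0.61 (SE; adjusted p = 5.19e-06). Its close copy Serpinb3b had 225, 298 and 157 CPM in IMQ_Veh, against 83.2, 102 and 60.7 CPM in UTX_Veh, a log2 fold of 1.47 ± 0.28 (adjusted p = 0.000742). Both copies were separated between the groups, but UTX_Veh held far more Serpinb3b than Serpinb3a. Serpinb3c had 3.01, 4.10 and 0.787 CPM in IMQ_Veh, against 0.0393, 0.0418 and 0 CPM in UTX_Veh. With 175 counts in IMQ_Veh and 2 in UTX_Veh, the ratio was 101 (95% counting interval 27.5 to 838). Serpinb3d had 3.27, 0.523 and 1.94 CPM in IMQ_Veh and no count in UTX_Veh, which makes it at least 43.4-fold higher when UTX_Veh is set at 3 counts in all (adjusted p = 0.00185). Its fitted log2 fold of 8.36 depends on the prior count and came to 7.72 without IMQ_Veh replicate 1.

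Among the other genes of this cluster, Serpinb11, which in mice inhibits trypsin-like proteases, had 54.5, 24.5 and 46.0 CPM in IMQ_Veh, against 6.84, 8.69 and 6.11 CPM in UTX_Veh (log2 fold 2.53 ± 0.29, adjusted p = 2.36e-05). Serpinb12, an inhibitor of trypsin-like proteases found in epithelia, had 315, 140 and 285 CPM in IMQ_Veh, against 59.1, 80.5 and 51.4 CPM in UTX_Veh (log2 fold 1.95 ± 0.29, adjusted p = 0.000131). The lowest IMQ_Veh library, replicate 2, still lay above every UTX_Veh library for both genes. Serpinb2, an inhibitor of urokinase that is also built into the cornified envelope, had 393, 427 and 301 CPM in IMQ_Veh, against 134, 151 and 112 CPM in UTX_Veh (log2 fold 1.5 ± 0.15, adjusted p = 1.01e-05). Serpinb5 rose least, with 704, 602 and 576 CPM in IMQ_Veh, against 423, 484 and 394 CPM in UTX_Veh (log2 fold 0.53 ± 0.12, adjusted p = 0.00193). These genes are expressed in the epidermis. Suprabasal markers were higher in sum in IMQ_Veh, with 3 of 5 called higher and 1 lower, and their part in these rises was not tested.

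The chromosome 1 members that fell were Serpinb7 and Serpinb13. Serpinb7 (ENSMUSG00000067001, chr1:107399655-107452689) is an epidermal serpin whose loss in people causes a palmoplantar keratoderma. It had 38.4, 47.3 and 46.4 CPM in IMQ_Veh, against 114, 133 and 108 CPM in UTX_Veh (log2 fold -1.43 ± 0.17, adjusted p = 3.15e-05). Serpinb13, an inhibitor of cathepsins L and K in stratified epithelia, had 2.13, 7.12 and 2.68 CPM in IMQ_Veh, against 14.5, 14.4 and 9.23 CPM in UTX_Veh (log2 fold -1.65 ± 0.39, adjusted p = 0.00329). The groups did not overlap for either gene, and without IMQ_Veh replicate 2 the log2 fold of Serpinb13 was -2.45. Serpinb7 lies 19.2 kb from Serpinb11, which rose. Serpinb8, which in people is needed for cohesion of the epidermis, had 91.4, 69.4 and 91.5 CPM in IMQ_Veh, against 84.6, 94.8 and 85.3 CPM in UTX_Veh, with a log2 fold of -0.07 (95% interval -0.41 to 0.27).

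**Figure D2:**
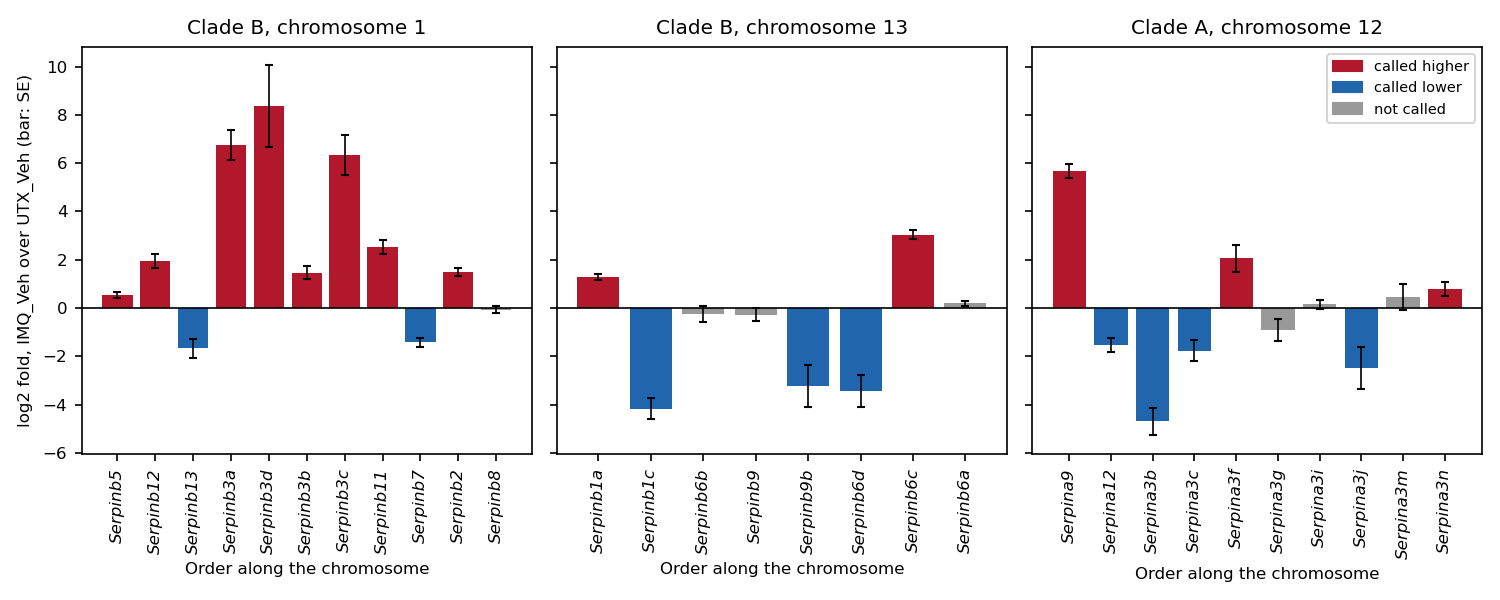
Bars give the log2 fold of IMQ_Veh over UTX_Veh with its SE for the members of the 3 gene clusters, in their order along the chromosome and not to scale in distance; red bars were called higher, blue bars called lower and grey bars not called. In the chromosome 1 cluster 8 of 11 bars are red, while the chromosome 13 and 12 clusters hold bars in both directions. The red bars include Serpinb3c and Serpinb3d, members only through imiquimod groups. The blue bars include Serpinb1c and Serpinb9b, members only through UTX_Veh.

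On chromosome 13, 2 of the 8 clade B members rose, 3 fell and 3 did not pass the test, which is 62.5% called beside 61.9% of all tested genes. Serpinb6c (ENSMUSG00000052180, chr13:33879816-33905708) had 37.0, 27.5 and 32.1 CPM in IMQ_Veh, against 3.30, 4.47 and 3.97 CPM in UTX_Veh (log2 fold 3.04 ± 0.18, adjusted p = 5.6e-07). Serpinb6d (ENSMUSG00000047889, chr13:33661405-33671581), 208.2 kb away, had 4.36, 3.98 and 20.0 CPM in IMQ_Veh, against 107, 84.5 and 115 CPM in UTX_Veh (log2 fold -3.44 ± 0.65, adjusted p = 0.000771). The family members thus moved in opposite directions with no overlap of the groups. The IMQ_Veh library highest for Serpinb6d was replicate 3, the library with the most muscle and fibroblast marker counts of its group, and without it the log2 fold was -4.61. Serpinb6a, a widely expressed inhibitor of cathepsin G, had 185, 178 and 217 CPM in IMQ_Veh, against 152, 181 and 173 CPM in UTX_Veh and was not called (log2 fold 0.19, 95% interval -0.06 to 0.45).

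Serpinb1a, an inhibitor of neutrophil elastase, cathepsin G and proteinase 3, had 55.6, 62.9 and 61.3 CPM in IMQ_Veh, against 24.2, 22.2 and 26.9 CPM in UTX_Veh (log2 fold 1.3 ± 0.12, adjusted p = 4.71e-06). The spread within each group was small beside this difference. The copy that lies 30.2 kb away, Serpinb1c, fell, with 0.0519, 0.281 and 0.105 CPM in IMQ_Veh, against 2.99, 3.64 and 2.01 CPM in UTX_Veh (log2 fold -4.16, and -5.15 without IMQ_Veh replicate 2). Serpinb9b also fell, with 0, 0 and 0.315 CPM in IMQ_Veh, against 0.904, 1.09 and 0.854 CPM in UTX_Veh (log2 fold -3.22, -2.60 without IMQ_Veh replicate 2 and -7.39 without replicate 3). UTX_Veh was the only group in which these 2 genes reached 10 counts in any library, so they are members only through the group where they were high; both were singled out after their values were seen. Without them, 14 of 35 members rose and 9 fell. Serpinb3c and Serpinb3d, members only through imiquimod groups, were not left out and count among those that rose. The count without Serpinb1c and Serpinb9b therefore leans toward rises. Serpinb9, the granzyme B inhibitor that protects cells from their own cytotoxic granules, had 5.08, 3.14 and 7.71 CPM in IMQ_Veh, against 5.74, 6.60 and 6.92 CPM in UTX_Veh and was not called (log2 fold -0.28, 95% interval -0.89 to 0.33).

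In the clade A cluster on chromosome 12, 3 of 10 members rose and 4 fell, which is 70.0% called beside 61.9% of all tested genes, also near the background. Serpina9 (ENSMUSG00000058260, chr12:103994743-104013755), in people a serpin of germinal centre B cells, had 56.5, 57.6 and 39.0 CPM in IMQ_Veh, against 1.3, 0.752 and 0.940 CPM in UTX_Veh. The log2 fold of 5.67 ± 0.29 had the smallest adjusted p of the 37 members, 3.73e-07. Serpina12 (ENSMUSG00000041567, chr12:104028769-104044443), which makes vaspin, an inhibitor of a kallikrein of the cornified layer, lies 15 kb from it and fell. It had 56.2, 29.9 and 76.1 CPM in IMQ_Veh, against 143, 182 and 142 CPM in UTX_Veh (log2 fold -1.53 ± 0.30, adjusted p = 0.00104).

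Of the Serpina3 genes, Serpina3b, Serpina3j and Serpina3c fell. Serpina3b had 2.08, 1.81 and 7.87 CPM in IMQ_Veh, against 101, 127 and 72.0 CPM in UTX_Veh (log2 fold -4.70 ± 0.56, adjusted p = 3.3e-05). Serpina3j had 2.39, 0.201 and 6.98 CPM in IMQ_Veh, against 18.9, 17.9 and 15.8 CPM in UTX_Veh (log2 fold -2.49 ± 0.88, adjusted p = 0.0267). Serpina3c had 2.08, 0.925 and 4.72 CPM in IMQ_Veh, against 9.51, 5.94 and 10.6 CPM in UTX_Veh (log2 fold -1.78 ± 0.44, adjusted p = 0.00415). In each case replicate 3 was the highest IMQ_Veh library, and without it the log2 folds were -5.68, -3.85 and -2.56; the call of Serpina3j ended without IMQ_Veh replicate 1, UTX_Veh replicate 1 or UTX_Veh replicate 2. Serpina3n, a secreted acute-phase inhibitor of granzyme B and elastase, had 105, 60.7 and 171 CPM in IMQ_Veh, against 64.1, 48.1 and 82.7 CPM in UTX_Veh (log2 fold 0.79 ± 0.30, adjusted p = 0.0389). Its groups overlapped, and the call ended without IMQ_Veh replicate 1 or 3 or UTX_Veh replicate 1 or 2, with a log2 fold of 0.35 without IMQ_Veh replicate 3. Serpina3f, singled out after its values were seen, rose from a low level, with 0.934, 1.93 and 1.94 CPM in IMQ_Veh, against 0.590, 0.293 and 0.256 CPM in UTX_Veh (log2 fold 2.06, adjusted p = 0.00774). Serpina3g, an intracellular inhibitor of cathepsins, had 2.85, 1.69 and 7.35 CPM in IMQ_Veh, against 8.25, 6.31 and 7.39 CPM in UTX_Veh and was not called (adjusted p = 0.11).

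Outside the clusters, Serpinf1 and Serpine2 fell. Serpinf1 had 45.9, 40.9 and 117 CPM in IMQ_Veh, against 166, 138 and 222 CPM in UTX_Veh (log2 fold -1.37 ± 0.33, adjusted p = 0.00347), and the log2 fold without IMQ_Veh replicate 3 was -2.01. Serpine2, an inhibitor of thrombin and plasminogen activators, had 23.2, 20.3 and 48.6 CPM in IMQ_Veh, against 57.9, 53.3 and 70.1 CPM in UTX_Veh (log2 fold -0.98 ± 0.29, adjusted p = 0.0125). IMQ_Veh replicate 3 was the highest library of its group for both genes, as it was for fibroblast markers, and the part of that library's make-up was not tested beyond leaving it out.

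Among the secreted and matrix serpins that did not pass the test, Serping1 and Serpinh1 varied more among the IMQ_Veh libraries than among the UTX_Veh libraries. Serping1, the inhibitor of the first complement proteases, had 114, 63.5 and 215 CPM in IMQ_Veh, against 192, 173 and 259 CPM in UTX_Veh. Serpinh1, a collagen chaperone of fibroblasts, had 96.1, 49.3 and 210 CPM in IMQ_Veh, against 113, 87.4 and 122 CPM in UTX_Veh. Replicate 3 was again the highest and replicate 2 the lowest IMQ_Veh library for both. Serpinc1 (antithrombin) had 2.85, 2.98 and 2.31 CPM in IMQ_Veh, against 2.99, 1.55 and 0.598 CPM in UTX_Veh. Serpini1 (neuroserpin) had 0.415, 0.281 and 0.525 CPM in IMQ_Veh, against 0.393, 0.711 and 0.897 CPM in UTX_Veh, and Serpinf2 (antiplasmin) 0.311, 0.563 and 0.525 CPM in IMQ_Veh, against 0.511, 1.04 and 0.299 CPM in UTX_Veh. The groups overlapped for all 5 genes, with adjusted p between 0.093 for Serping1 and 0.782 for Serpinh1. The remaining uncalled members, Serpina3i, Serpina3m and Serpinb6b, lay between 0.201 and 4.99 CPM in all IMQ_Veh and UTX_Veh libraries.

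**Figure D3:**
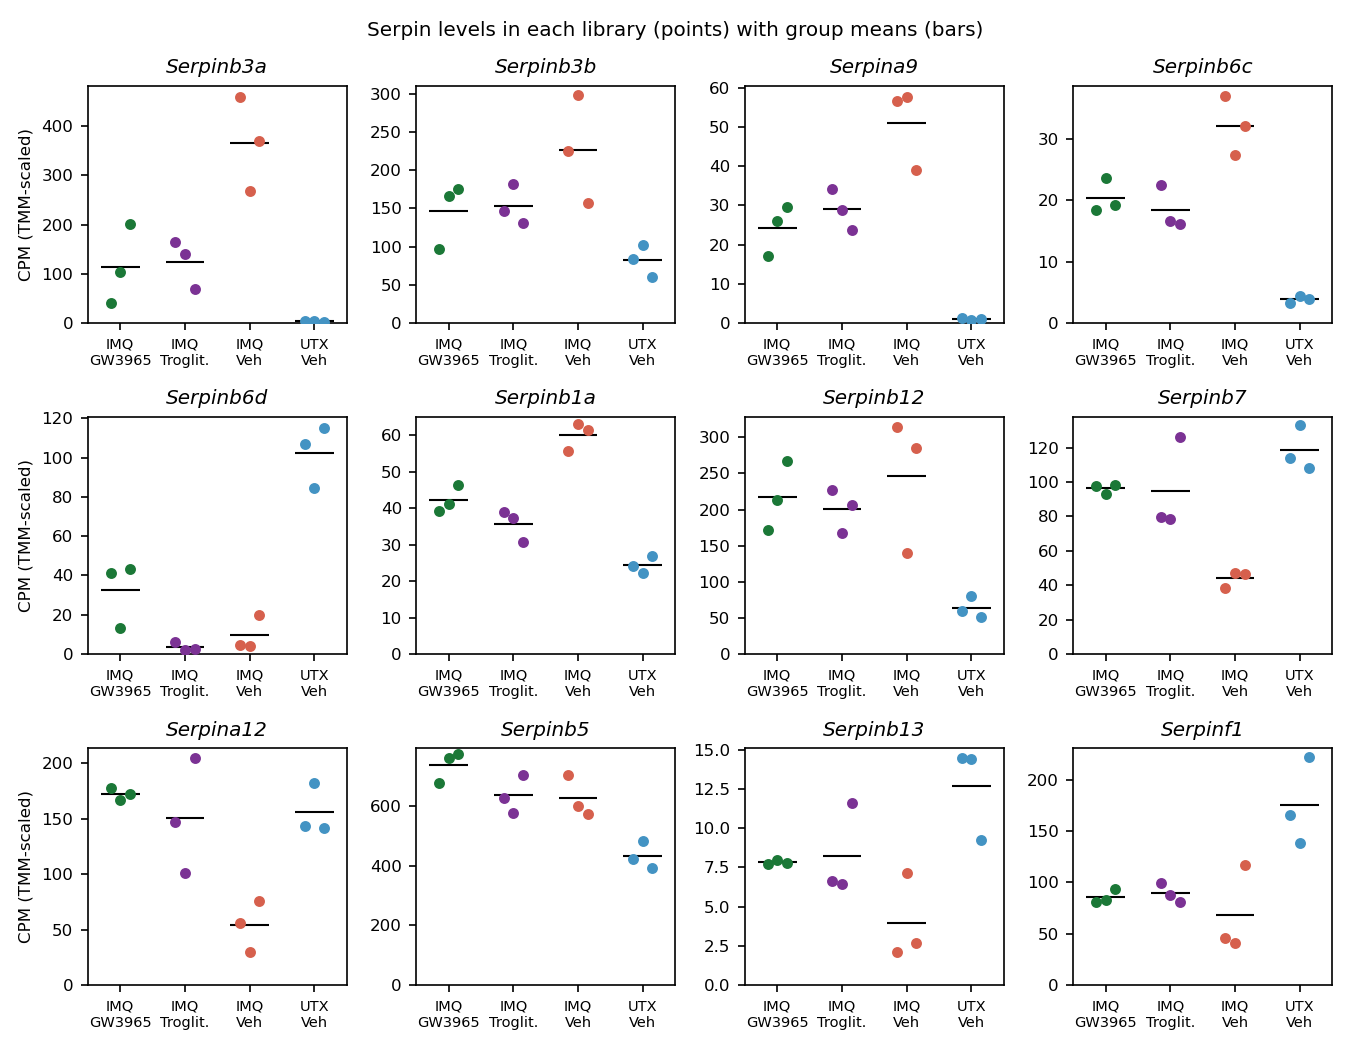
TMM-scaled CPM of 12 serpins in each library (points) with the group mean (bar), in the order IMQ_GW3965, IMQ_Troglitazone, IMQ_Veh, UTX_Veh; each panel has its own axis from 0. Serpinb7 and Serpina12 are lower in the 3 IMQ_Veh libraries than in all other libraries, and Serpinb3a, Serpina9, Serpinb6c and Serpinb1a are highest in IMQ_Veh.

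The comparisons with IMQ_Veh ask how serpin mRNA differed when imiquimod skin was also given an agonist. In IMQ_GW3965 against IMQ_Veh, 2 members rose and 4 fell, which is 16.2% called beside 6.59% of all tested genes (3.71% higher and 2.88% lower). In IMQ_Troglitazone against IMQ_Veh, 5 members rose and 4 fell, which is 24.3% beside 9.34% (4.69% higher and 4.65% lower). Both share the IMQ_Veh libraries with each other and with the comparison to UTX_Veh. The median absolute log2 fold of the members was 0.64 with GW3965 and 0.60 with troglitazone, beside 0.22 and 0.25 over all tested genes. Serpinb3c and Serpinb3d, members only through imiquimod groups, are among these members. The counts rested on single libraries. For GW3965 the count was 18 without IMQ_Veh replicate 3, 1 without IMQ_Veh replicate 1, 1 without IMQ_GW3965 replicate 1 and 2 without IMQ_GW3965 replicate 2; for troglitazone it was 17 without IMQ_Veh replicate 3, 2 without IMQ_Veh replicate 1, 5 without IMQ_Veh replicate 2, and 4, 5 and 2 without IMQ_Troglitazone replicates 1, 2 and 3. Neutrophil markers, which rose in IMQ_Veh, summed to 271 to 2014 CPM in IMQ_GW3965, 383 to 1961 CPM in IMQ_Troglitazone and 5739 to 10079 CPM in IMQ_Veh, with 2 of 6 called lower for each agonist. Suprabasal keratinocyte markers summed to 38759 to 53664 CPM in IMQ_GW3965 and 36926 to 45509 CPM in IMQ_Troglitazone, against 27453 to 41943 CPM in IMQ_Veh, with 2 of 5 called higher for each agonist. Muscle markers, with 1 of 6 called higher for GW3965 and none for troglitazone, summed to 3606 to 4943 CPM in IMQ_GW3965 and 2213 to 3164 CPM in IMQ_Troglitazone, against 643 to 3235 CPM in IMQ_Veh. Erythrocyte markers, with none called for GW3965 and 4 of 5 lower for troglitazone, summed to 448 to 560 CPM in IMQ_GW3965 and 151 to 240 CPM in IMQ_Troglitazone, against 238 to 635 CPM in IMQ_Veh. The part of these cell types in the serpin differences was not tested.

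Serpinb7 and Serpina12 rose with each agonist. Serpinb7 had 97.5, 93.1 and 98.3 CPM in IMQ_GW3965 and 79.8, 78.2 and 126 CPM in IMQ_Troglitazone, against 38.4, 47.3 and 46.4 CPM in IMQ_Veh. The log2 folds were 1.13 ± 0.17 (adjusted p = 0.00705) and 1.11 ± 0.17 (adjusted p = 0.00816), and neither call ended when any single library was left out. All 6 agonist libraries thus lay above all 3 IMQ_Veh libraries. Serpina12 had 178, 167 and 172 CPM in IMQ_GW3965 and 147, 101 and 205 CPM in IMQ_Troglitazone, against 56.2, 29.9 and 76.1 CPM in IMQ_Veh. Its log2 folds were 1.67 ± 0.30 (adjusted p = 0.0158) and 1.49 ± 0.30 (adjusted p = 0.0163); the first call ended without IMQ_Veh replicate 1 or IMQ_GW3965 replicate 1, and the second without IMQ_Veh replicate 1 or IMQ_Troglitazone replicate 3. Against UTX_Veh, the log2 folds of Serpinb7 were -0.30 with GW3965 and -0.32 with troglitazone, and those of Serpina12 were 0.15 and -0.04, none of them called.

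The members that fell with each agonist were Serpinb1a, Serpina9, Serpinb6c and Serpinb3c. Serpinb1a, the neutrophil protease inhibitor, had 39.1, 41.2 and 46.2 CPM in IMQ_GW3965 and 38.8, 37.3 and 30.6 CPM in IMQ_Troglitazone, against 55.6, 62.9 and 61.3 CPM in IMQ_Veh. The log2 folds were -0.51 ± 0.11 (adjusted p = 0.0271) and -0.75 ± 0.11 (adjusted p = 0.0079). No agonist library reached the lowest IMQ_Veh library, and the GW3965 call ended without IMQ_Veh replicate 1 or 2 or IMQ_GW3965 replicate 1 or 2. Serpina9 had 17.0, 26 and 29.5 CPM in IMQ_GW3965 and 34.2, 28.9 and 23.8 CPM in IMQ_Troglitazone, against 56.5, 57.6 and 39.0 CPM in IMQ_Veh. Its log2 folds were -1.08 ± 0.22 (adjusted p = 0.0218) and -0.82 ± 0.22 (adjusted p = 0.0412). The groups did not overlap, but the GW3965 call ended without IMQ_Veh replicate 1 or IMQ_GW3965 replicate 1 or 2, and the troglitazone call without any library of either group other than IMQ_Veh replicate 3.

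Serpinb6c had 18.5, 23.6 and 19.2 CPM in IMQ_GW3965 and 22.6, 16.6 and 16.1 CPM in IMQ_Troglitazone, against 37.0, 27.5 and 32.1 CPM in IMQ_Veh. The log2 folds were -0.65 ± 0.17 (adjusted p = 0.0405) and -0.80 ± 0.17 (adjusted p = 0.0177). All agonist libraries lay below all IMQ_Veh libraries; the GW3965 call ended without IMQ_Veh replicate 1 or any IMQ_GW3965 library, and the troglitazone call without IMQ_Veh replicate 1 or IMQ_Troglitazone replicate 3. Serpinb3c had 0.362, 0.468 and 0.811 CPM in IMQ_GW3965 and 0.762, 0.824 and 0.410 CPM in IMQ_Troglitazone, against 3.01, 4.10 and 0.787 CPM in IMQ_Veh. Its log2 folds were -2.31 ± 0.56 (adjusted p = 0.0349) and -2.0 ± 0.53 (adjusted p = 0.0405), with groups that overlapped through IMQ_Veh replicate 3, and each call ended without any 1 library of its groups other than IMQ_Veh replicate 3. Serpinb3a, a close copy of it, missed the threshold, with 40.5, 103 and 201 CPM in IMQ_GW3965 and 164, 141 and 70.1 CPM in IMQ_Troglitazone, against 459, 269 and 370 CPM in IMQ_Veh. Although no agonist library reached an IMQ_Veh library, the adjusted p was 0.0548 with GW3965 and 0.0591 with troglitazone. The IMQ_GW3965 libraries of Serpinb3a spread widely, as did their neutrophil marker sums of 271, 1366 and 2014 CPM. In IMQ_Troglitazone these sums were 1961, 1590 and 383 CPM, in the same order as Serpinb3a. In IMQ_Veh the sums were 9547, 10079 and 5739 CPM, in another order than Serpinb3a. The part of neutrophils was not tested.

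With troglitazone 3 more members rose, all close to the threshold. Serpinb8 had 120, 94.0 and 145 CPM in IMQ_Troglitazone, against 91.4, 69.4 and 91.5 CPM in IMQ_Veh (log2 fold 0.51 ± 0.15, adjusted p = 0.0496). Serpina3c had 6.64, 6.35 and 9.28 CPM in IMQ_Troglitazone, against 2.08, 0.925 and 4.72 CPM in IMQ_Veh (log2 fold 1.55 ± 0.44, adjusted p = 0.0477, and 2.34 without IMQ_Veh replicate 3). Serpina3m had 1.74, 1.5 and 2.42 CPM in IMQ_Troglitazone, against 0.934, 0.201 and 0.682 CPM in IMQ_Veh (log2 fold 1.68 ± 0.47, adjusted p = 0.0452). The groups did not overlap for any of these genes. The calls of Serpina3c and Serpina3m ended without IMQ_Veh replicate 1 or 2 or any IMQ_Troglitazone library, and that of Serpinb8 without IMQ_Veh replicate 1 or 2 or IMQ_Troglitazone replicate 1 or 3. GW3965 gave values of like size that missed the threshold: Serpinb8 had 123, 122 and 120 CPM (log2 fold 0.54, adjusted p = 0.0501), Serpina3c 8.05, 5.77 and 7.30 CPM (1.47, adjusted p = 0.0652) and Serpina3m 2.12, 2.34 and 1.22 CPM (1.69, adjusted p = 0.0529). The test of the difference between the agonists, given for all 3 genes in the comparison of the agonists, did not pass.

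**Figure D4:**
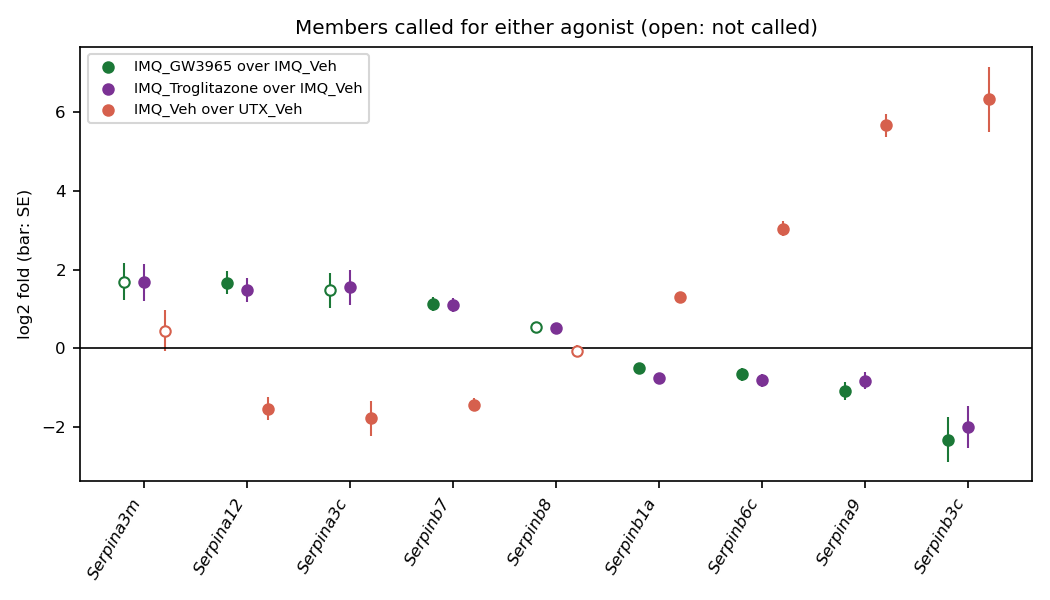
Log2 folds with SE of the 9 members called for either agonist against IMQ_Veh, shown for IMQ_GW3965 over IMQ_Veh, IMQ_Troglitazone over IMQ_Veh and, beside them, IMQ_Veh over UTX_Veh; open symbols were not called. Serpinb7 and Serpina12 lie above 0 with both agonists and below 0 for imiquimod, whereas Serpina9, Serpinb6c, Serpinb1a and Serpinb3c show the opposite signs; all 3 comparisons use the IMQ_Veh libraries.

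Serpine2, Serping1 and Serpinh1, which act outside cells or on collagen, missed the threshold against IMQ_Veh. Serpine2 had 77.7, 54.7 and 53.5 CPM in IMQ_GW3965 and 47.5, 38.7 and 59.6 CPM in IMQ_Troglitazone, against 23.2, 20.3 and 48.6 CPM in IMQ_Veh (log2 folds 1.02, adjusted p = 0.0593, and 0.67, adjusted p = 0.163). Serping1 had 196, 201 and 228 CPM in IMQ_GW3965 and 226, 180 and 190 CPM in IMQ_Troglitazone, against 114, 63.5 and 215 CPM in IMQ_Veh. The agonist libraries lay within or near the IMQ_Veh range for Serping1. Serpinh1 had 68.3, 97.2 and 108 CPM in IMQ_GW3965 and 102, 101 and 61.3 CPM in IMQ_Troglitazone, against 96.1, 49.3 and 210 CPM in IMQ_Veh, with overlap of all groups.

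The direct comparison of IMQ_GW3965 with IMQ_Troglitazone called 1 of 37 members, which is 2.7% beside 1.86% of all tested genes (1.08% higher and 0.782% lower). That member was Serpinb6d, with 41.3, 13.1 and 43.1 CPM in IMQ_GW3965, against 6.31, 1.89 and 2.42 CPM in IMQ_Troglitazone. The log2 fold was 3.18 ± 0.68 (95% interval 1.62 to 4.74, adjusted p = 0.0418), and the groups did not overlap. The call ended without any 1 of the 6 libraries, with adjusted p between 0.0511 without IMQ_GW3965 replicate 2 and 0.178 without IMQ_Troglitazone replicate 2, and the log2 fold without IMQ_Troglitazone replicate 1 was 3.90. Against IMQ_Veh (4.36, 3.98 and 20.0 CPM) neither agonist passed for this gene: the log2 folds were 1.79 with GW3965 (adjusted p = 0.099) and -1.39 with troglitazone (adjusted p = 0.201). Muscle marker sums also differed between the groups, with 4943, 3780 and 3606 CPM in IMQ_GW3965 and 2928, 2213 and 3164 CPM in IMQ_Troglitazone, against 794, 643 and 3235 CPM in IMQ_Veh. The UTX_Veh libraries held 6153, 7062 and 6838 CPM of these markers, and no muscle marker was called between the agonists. Erythrocyte markers, with 1 of 5 called higher, summed to 448, 517 and 560 CPM in IMQ_GW3965, against 228, 240 and 151 CPM in IMQ_Troglitazone. The part of either cell type in the Serpinb6d values was not tested. The count over all genes also rested on single libraries: the 319 genes called between the agonists became 0 without IMQ_GW3965 replicate 1 or 3 or IMQ_Troglitazone replicate 2 or 3, 51 without IMQ_GW3965 replicate 2 and 73 without IMQ_Troglitazone replicate 1.

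For the members called with either agonist, the interval of the difference between agonists gives what these libraries could show. The log2 fold of IMQ_GW3965 over IMQ_Troglitazone was 0.02 for Serpinb7 (95% interval -0.36 to 0.41), 0.19 for Serpina12 (-0.49 to 0.86), 0.15 for Serpinb6c (-0.24 to 0.54) and -0.27 for Serpina9 (-0.78 to 0.25). For Serpinb8 it was 0.03 (-0.31 to 0.36), for Serpina3c -0.08 (-1.03 to 0.87), for Serpina3m 0.02 (-0.95 to 0.98) and for Serpinb3c -0.32 (-1.73 to 1.09). Serpinb1a had 39.1, 41.2 and 46.2 CPM in IMQ_GW3965 and 38.8, 37.3 and 30.6 CPM in IMQ_Troglitazone, ranges that did not overlap, and its log2 fold of 0.25 (-0.02 to 0.51) did not pass. These intervals are wide for the low Serpina3 and Serpinb3c genes and do not show that the agonists act alike.

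Set against UTX_Veh, imiquimod skin given an agonist still differed in many serpins. In IMQ_GW3965, 15 members were higher and 5 lower than in UTX_Veh, 54.1% of members beside 50.2% of all tested genes (28.7% higher and 21.5% lower). In IMQ_Troglitazone, 14 were higher and 6 lower, 54.1% beside 45.3% (26.5% higher and 18.8% lower). Without Serpinb1c and Serpinb9b, which are members only through UTX_Veh, 15 of 35 members were higher and 3 lower in IMQ_GW3965, and 14 higher and 4 lower in IMQ_Troglitazone. Under upper-quartile scaling, 44.7% of the genes called in IMQ_Troglitazone were higher, against 58.5% under TMM, and the shares were 47.2% against 57.2% in IMQ_GW3965 and 45.0% against 53.3% in IMQ_Veh; no called member changed direction. In each comparison 9 of the 11 chromosome 1 clade B members were higher and none lower. Serpinb3c and Serpinb3d, members only through imiquimod groups, count among the higher members here and in the counts above. The counts without Serpinb1c and Serpinb9b therefore lean toward higher members.

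The Serpinb3 genes, Serpina9 and Serpinb6c stood far above UTX_Veh under both agonists. Serpinb3a had a log2 fold of 5.09 ± 0.57 in IMQ_GW3965 (4.39 without replicate 3) and of 5.21 ± 0.58 in IMQ_Troglitazone. Serpina9 had 4.58 ± 0.29 and 4.85 ± 0.29, and Serpinb6c 2.38 ± 0.18 and 2.23 ± 0.18, with adjusted p of at most 7.39e-06 for the 4 values. Serpinb3c had 29 counts in IMQ_GW3965 and 45 in IMQ_Troglitazone against 2 in UTX_Veh, ratios of 18.8 (95% counting interval 4.75 to 162) and 23.9 (6.23 to 203). Serpinb3d had 0.0452, 0.780 and 0.203 CPM in IMQ_GW3965 and 0.720, 0.388 and 0.0821 CPM in IMQ_Troglitazone, against no count in UTX_Veh, so it was at least 8.21-fold and 9.55-fold higher. Its calls (adjusted p = 0.0458 and 0.0374) ended without any 1 UTX_Veh library, without IMQ_GW3965 replicate 2 or 3, and without IMQ_Troglitazone replicate 1 or 2.

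The epidermal serpins Serpinb11, Serpinb12 and Serpinb2 were also higher than in UTX_Veh. Serpinb11 had 29.6, 37.2 and 37.9 CPM in IMQ_GW3965 and 35.5, 23.2 and 38.1 CPM in IMQ_Troglitazone, against 6.84, 8.69 and 6.11 CPM in UTX_Veh (log2 folds 2.27 and 2.16). Serpinb12 had 172, 213 and 267 CPM in IMQ_GW3965 and 227, 168 and 206 CPM in IMQ_Troglitazone, against 59.1, 80.5 and 51.4 CPM in UTX_Veh (1.77 and 1.65). Serpinb2 had 298, 373 and 308 CPM in IMQ_GW3965 and 300, 343 and 321 CPM in IMQ_Troglitazone, against 134, 151 and 112 CPM in UTX_Veh (1.3 and 1.28). All agonist libraries of these genes lay above all UTX_Veh libraries. Serpinb5 had 679, 761 and 777 CPM in IMQ_GW3965 and 628, 579 and 704 CPM in IMQ_Troglitazone, against 423, 484 and 394 CPM in UTX_Veh (log2 folds 0.77 and 0.56). Serpinb6a was called with GW3965, with 238, 228 and 212 CPM against 152, 181 and 173 CPM in UTX_Veh (log2 fold 0.42, adjusted p = 0.00743), and had 209, 171 and 208 CPM in IMQ_Troglitazone (0.21, adjusted p = 0.126).

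Serpina3n, the acute-phase inhibitor, was higher than in UTX_Veh with each agonist, with 178, 191 and 166 CPM in IMQ_GW3965 and 215, 167 and 225 CPM in IMQ_Troglitazone, against 64.1, 48.1 and 82.7 CPM in UTX_Veh. The log2 folds were 1.46 ± 0.30 (adjusted p = 0.0021) and 1.64 ± 0.31 (adjusted p = 0.00143). The agonist libraries did not overlap with UTX_Veh. Serpina3m, with 0.314, 0.334 and 0.641 CPM in UTX_Veh, had log2 folds of 2.15 and 2.13 (adjusted p = 0.00309 and 0.00393). Serpinb3b (log2 folds 0.83 and 0.90) and Serpinb8 (0.47 and 0.44) were called higher with each agonist, but the calls depended on single libraries. Those of Serpinb3b ended without UTX_Veh replicate 1 or 3, IMQ_GW3965 replicate 2 or 3, or IMQ_Troglitazone replicate 2; those of Serpinb8 ended without UTX_Veh replicate 1 or 3, IMQ_GW3965 replicate 2 or 3, or IMQ_Troglitazone replicate 1 or 3.

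Among the members lower than in UTX_Veh, Serpina3b had 16.9, 5.51 and 7.37 CPM in IMQ_GW3965 and 5.33, 4.12 and 6.81 CPM in IMQ_Troglitazone, against 101, 127 and 72.0 CPM in UTX_Veh. Its log2 folds were -3.32 ± 0.52 (adjusted p = 0.000313; -3.96 without IMQ_GW3965 replicate 1) and -4.20 ± 0.54 (adjusted p = 0.000137). The agonist libraries lay far below UTX_Veh. Serpinb6d had log2 folds of -1.65 ± 0.60 with GW3965 (adjusted p = 0.0368) and -4.84 ± 0.71 with troglitazone (adjusted p = 0.000307; -5.54 without IMQ_Troglitazone replicate 1), and the GW3965 call ended without any 1 of its 6 libraries. Serpinf1 had 81.4, 83.1 and 93.9 CPM in IMQ_GW3965 and 99.9, 88.2 and 81.1 CPM in IMQ_Troglitazone, against 166, 138 and 222 CPM in UTX_Veh (log2 folds -1.03, adjusted p = 0.0207, and -0.97, adjusted p = 0.0303). Those calls ended without UTX_Veh replicate 3, IMQ_GW3965 replicate 1 or 2, UTX_Veh replicate 1 (troglitazone only) or any IMQ_Troglitazone library. Serpinb1c had 0.104 to 0.203 CPM in the agonist libraries, against 2.01 to 3.64 CPM in UTX_Veh (log2 fold -4.12 with each agonist). Serpinb9b (log2 folds -2.28 and -2.30) and, with troglitazone, Serpina3g (-1.24, adjusted p = 0.0474; 2.67, 1.99 and 4.60 CPM in IMQ_Troglitazone, against 8.25, 6.31 and 7.39 CPM in UTX_Veh) were called lower; the Serpina3g call ended without any UTX_Veh library or IMQ_Troglitazone replicate 1 or 2, and the Serpinb9b calls without any UTX_Veh library, IMQ_GW3965 replicate 2 or 3, or IMQ_Troglitazone replicate 1 or 2, with a log2 fold of -2.97 without IMQ_GW3965 replicate 1.

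Other serpins with a role in skin or plasma missed the threshold against UTX_Veh. Serpinb13 had 7.73, 8.00 and 7.77 CPM in IMQ_GW3965 and 6.64, 6.45 and 11.6 CPM in IMQ_Troglitazone, against 14.5, 14.4 and 9.23 CPM in UTX_Veh (log2 folds -0.70, adjusted p = 0.144, and -0.62, adjusted p = 0.19). Serpinb9 had 5.24, 4.94 and 6.56 CPM in IMQ_GW3965 and 5.04, 5.29 and 4.31 CPM in IMQ_Troglitazone, against 5.74, 6.60 and 6.92 CPM in UTX_Veh. Serpinc1 had 3.71, 2.65 and 2.64 CPM in IMQ_GW3965 and 2.50, 1.07 and 2.18 CPM in IMQ_Troglitazone, against 2.99, 1.55 and 0.598 CPM in UTX_Veh. None of these genes was called in either comparison. Serpinf2 and Serpini1 lay between 0.287 and 0.780 CPM in the agonist libraries.

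Serpins act on proteases, so a list of 69 protease, inhibitor and partner genes was read beside them. The list was chosen with earlier results of these data known. Its shares beside those of all tested genes, here and below, are therefore a description and not a test. Of these, 60 were tested; the neutrophil proteases Elane and Prtn3, the plasma proteases Plg, F2 and Klkb1, and Gzma were among those not tested. In IMQ_Veh against UTX_Veh 37 of the 60 rose and 12 fell, 81.7% beside 61.9% of all tested genes. Kallikreins, serine proteases that shed the cornified layer, had some of the largest changes: Klk13 averaged 503 ± 113 CPM in IMQ_Veh, against 3.05 ± 0.603 CPM in UTX_Veh (SD, n = 3 each; log2 fold 7.37), Klk6 992 ± 182 CPM in IMQ_Veh, against 16.5 ± 1.63 CPM in UTX_Veh (5.91), and Klk14 19.5 ± 3.8 CPM in IMQ_Veh, against 0.0655 ± 0.113 CPM in UTX_Veh. The airway trypsin-like protease gene Tmprss11d had 8.12 ± 4.05 CPM in IMQ_Veh, against 0.0413 ± 0.00177 CPM in UTX_Veh. Inhibitors of other families rose as well, with Slpi, an inhibitor of neutrophil elastase, at 128 ± 50.4 CPM in IMQ_Veh, against 1.48 ± 0.52 CPM in UTX_Veh (log2 fold 6.42), and Wfdc12 at 38.2 ± 5.93 CPM in IMQ_Veh, against 1.31 ± 0.676 CPM in UTX_Veh (4.86). Spink12 averaged 5.27 ± 1.91 CPM in IMQ_Veh, against 0.136 ± 0.0851 CPM in UTX_Veh (5.20), and Pi15 70.4 ± 29.1 CPM in IMQ_Veh, against 7.03 ± 1.28 CPM in UTX_Veh (3.32). Casp14, the caspase of cornification, averaged 919 ± 475 CPM in IMQ_Veh, against 53.5 ± 2.12 CPM in UTX_Veh (4.10), and F10, a coagulation protease, 3.44 ± 0.792 CPM in IMQ_Veh, against 0.415 ± 0.301 CPM in UTX_Veh (3.04).

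Against IMQ_Veh, 6 of these genes rose and 7 fell with GW3965 (21.7% called, beside 6.59% of all tested genes), and 8 rose and 9 fell with troglitazone (28.3%, beside 9.34%). Plaur, the urokinase receptor, averaged 8.02 ± 1.47 CPM in IMQ_GW3965 and 8.09 ± 3.48 CPM in IMQ_Troglitazone, against 20.6 ± 0.802 CPM in IMQ_Veh (log2 folds -1.37 and -1.35, adjusted p = 0.0204 and 0.0157). Tmprss11f, a membrane serine protease, averaged 58.5 ± 2.81 CPM in IMQ_GW3965 and 60.5 ± 18.7 CPM in IMQ_Troglitazone, against 22.9 ± 6.74 CPM in IMQ_Veh (adjusted p = 0.0126 and 0.00975). Klk14 fell to 4.10 ± 1.83 CPM in IMQ_GW3965 and 6.84 ± 2.99 CPM in IMQ_Troglitazone (log2 folds -2.27 and -1.51, adjusted p = 0.0204 and 0.048), and Klk13 to 211 ± 60.4 CPM in IMQ_GW3965 and 227 ± 69.7 CPM in IMQ_Troglitazone (-1.26 and -1.15, adjusted p = 0.0234 and 0.0253). The mast cell tryptase Tpsab1 rose with troglitazone, at 3.25 ± 0.644 CPM against 1.11 ± 0.165 CPM in IMQ_Veh (log2 fold 1.56, adjusted p = 0.016). As with the serpins, the counts moved with single libraries. The GW3965 count of 13 was 2 without IMQ_Veh replicate 1, 8 without its replicate 2 and 26 without its replicate 3, and 1, 4 and 7 when IMQ_GW3965 lost replicate 1, 2 or 3; the troglitazone count of 17 was 2 when IMQ_Veh lost replicate 1, 31 when it lost replicate 3, and 11 or 4 when IMQ_Troglitazone lost replicate 1 or 3.

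Between the agonists 1 of the 60 genes was called, 1.67% beside 1.86% of all tested genes. Lrp1, the endocytic receptor that clears serpin-protease complexes, averaged 368 ± 65.5 CPM in IMQ_GW3965, against 703 ± 83.8 CPM in IMQ_Troglitazone (log2 fold -0.93 ± 0.17, adjusted p = 0.0311), and that call ended when any 1 of the 6 libraries was left out.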

How the data were processed

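The strand setting and the annotation release behind the counting are not stated in the labels. Per the submitters' processing notes, FastQC, Trim Galore, STAR 2.7.3a and RSEM 1.3.3 were used with GRCm38 (mm10). The authors deposited 1 gene table per library, with RSEM expected counts, which are not normalized, TPM, which RSEM scales for transcript length and library, and FPKM, a like scaling by the authors that was not used here. Gene IDs were named from GENCODE M21, which held 52135 of 55416.

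Expected counts were rounded and tested with edgeR 4.0.16 (R 4.3.3; TMM, filterByExpr by group, quasi-likelihood F test) in 1 fit of all 12 libraries with group as the only term, with Benjamini-Hochberg adjustment over 17130 genes. CPM are TMM-scaled and compare libraries; TPM compare genes. Errors of log2 folds are SE, computed back from the test as the absolute log2 fold over the square root of its F value. Intervals of log2 folds are 95%, from a t distribution with 8 residual degrees of freedom. The tests used more degrees of freedom, so these intervals are wider than ones matched to the tests. A group with no count was set at a floor of 3 counts over the group. Counting intervals, also 95%, and floors cover counting error only. The fit was also run on simulated counts with the same spread for all genes and no outlying library. That setting differs from these data, so the run does not cover the libraries that stood apart. DESeq2 1.42.0, limma-voom 3.58.1, RLE and upper-quartile scaling, other filters, a fit of 2 groups, a replicate block, a lane term and leaving out each library were alternatives; leaving out both libraries that stood apart was chosen after seeing the data. A lane field (7 libraries L001, 5 libraries L009) is in the deposited files' names. IMQ_Veh was the only group with more libraries in L009 than in L001. Every called member had the same sign within both lanes, but this was fixed in advance where groups did not overlap. Each group held a single library in one of the lanes, so these signs cannot show whether lane had a part.

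Members and lists were chosen with earlier results of these data known. Values are given for the 8 called members with the largest log2 fold in each direction in IMQ_Veh against UTX_Veh and the 6 largest in other comparisons (mean of at least 1 CPM), and for a fixed list of skin serpins; of the protease list, for up to 10 and 4 genes. The values of 1 member are not reported here; it stands in the fits and in the counts over the members.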

Additional observations from a re-analysis of the deposited data

Results flagged for a closer look

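Serpinb6d differed between the agonists by the direct test, with a log2 fold of 3.18 in IMQ_GW3965 over IMQ_Troglitazone (adjusted p = 0.0418, edgeR). Its 3 IMQ_GW3965 libraries were all above its 3 IMQ_Troglitazone libraries. The groups have 3 libraries each, too few for a test of single outlying libraries.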

How the results depend on the processing

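No called member changed direction under any alternative: of 1281 recomputed log2 folds, 1114 stayed called and 167 lost the call. Member counts against UTX_Veh stayed within 1.5 times. Against IMQ_Veh they did not. For GW3965 the 6 members became 11 with DESeq2, 10 with limma-voom, 12 with no filter, 1 with only the 2 groups fitted, 18 without both libraries that stood apart, and 1 to 18 leaving out 1 library. For troglitazone the 9 became 0 with only the 2 groups, 15 without both libraries and 2 to 17 leaving out 1 library. Between the agonists the 1 became 0 with only the 2 groups, with the lane term, without both libraries, and in every fit leaving out 1 library (0 to 0). The protease list moved likewise. For GW3965 its 13 became 1 with only the 2 groups, 26 without both libraries and 1 to 26 leaving out 1 library; for troglitazone its 17 became 0, 30 and 2 to 31. Between the agonists its 1 became 0 with only the 2 groups, with the replicate block, without both libraries and leaving out 1 library (0 to 0).

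Deviations of same-numbered libraries correlated above 0.1 in 4 of 18 pairs (-0.221 to 0.312). Those of other-numbered libraries did so in 2 of 36 pairs (-0.298 to 0.347). These values do not settle whether replicate numbers mark a pairing. With the replicate block the member counts were 27 in the comparison of IMQ_Veh with UTX_Veh, 9 (GW3965) and 8 (troglitazone) in those with IMQ_Veh, 1 between the agonists, and 20 for each agonist against UTX_Veh. The calls it ended were those of Serpina9 and Serpina3m for troglitazone against IMQ_Veh and of Serpinb3d for each agonist against UTX_Veh.

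Over all genes, the counts of 1129 (GW3965) and 1600 (troglitazone) against IMQ_Veh were 2188 and 2537 with DESeq2, 102 and 0 with only the 2 groups, 549 and 1009 with the lane term, 3645 and 4460 without IMQ_Veh replicate 3, and 154 and 162 without IMQ_Veh replicate 1. The 319 between the agonists were 940 with DESeq2, 140 with no filter, 9 with only the 2 groups, 131 with the replicate block, 0 without both libraries that stood apart, and 0 to 73 leaving out 1 library. Upper-quartile scaling put the median log2 fold of all genes at -0.11 in each comparison with UTX_Veh and ended the call of Serpina3n in IMQ_Veh. The cause of these differences was not tested. With few counts in UTX_Veh, folds of Serpinb3c and Serpinb3d are bounded by depth.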
